A study of Mus musculus with 11 samples.

Results

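The change in RNA levels from the zygote to the 2-cell embryo was measured in the mouse after round spermatid injection (ROSI) and after intracytoplasmic sperm injection (ICSI), and the 2 changes were compared gene by gene. The quantity reported for each gene is the change after ROSI minus the change after ICSI, called here the difference of stage changes. It is positive where a gene was activated more, or cleared less, after ROSI. All 11 of the 11 libraries of the study entered it, because both stages of both kinds of embryo are needed, and every gene that passed a filter on low values was tested.

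All embryos carried the C57BL/6 strain label. The groups were 2 libraries of ROSI zygotes, 3 of ICSI zygotes, 3 of ROSI 2-cell embryos and 3 of ICSI 2-cell embryos. The ROSI embryos at both stages had been activated in calcium-free CZB medium with 5 mM SrCl2 before KSOM culture, and the ICSI embryos were kept in KSOM alone. Paternal cell and chemical activation therefore cannot be told apart in any difference below. The labels give neither the number of embryos pooled in a library, nor the hours after injection, nor whether libraries of a group came from separate collections, so the p-values measure the spread between these libraries, which may be technical.

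A round spermatid is a haploid male germ cell that has finished meiosis but has not yet replaced its histones with protamines or elongated into a sperm. It cannot activate the egg by itself, which is why an activating agent such as strontium is added. In the mouse, the zygote starts with RNA stored by the oocyte, and a minor wave of transcription begins in the zygote, followed by major genome activation in the 2-cell embryo. Maternal transcripts are degraded over the same period, so a stage change in RNA level is the sum of synthesis and decay. The title of the study names histone H3 lysine 27 trimethylation, the Polycomb mark, as inherited from the father in ROSI, and the comparison asks where genome activation and maternal clearance ran to a different extent.

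The deposited values are TPM, a transcript abundance scaled for gene length, and each library sums to the same total. Read depth recovered from the values, in units of 1e6 reads (M), ranged from 70.7 to 85.9 M in 4 of the zygote libraries. It was 30.4 M in ROSI zygote replicate 1, 20.5 to 32.9 M in 5 of the 2-cell libraries and 8.48 M in ICSI 2-cell replicate 1. Protein-coding genes held 65.9% to 71.5% of TPM in zygotes and 44.6% to 51.4% in 2-cell embryos, so the TPM scale itself differs between stages. A single noncoding locus, Gm23935, took 8.31% to 10.6% of TPM in ICSI zygotes, 13.3% to 14.9% in ROSI zygotes, 16.2% to 17.6% in ICSI 2-cell embryos and 12.7% to 23.7% in ROSI 2-cell embryos. Oocyte markers were abundant in every library, with a summed 43692 to 53032 TPM in zygotes. The zygote libraries numbered 1 in both groups held 0.572% and 0.611% of TPM in small nuclear and nucleolar RNA, against 1.64% to 2.58% in the other zygote libraries.

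Most of the transcriptome moved alike after both injections. Of 21938 genes tested, 7246 were higher in 2-cell embryos after ICSI, which is 33.0%, and 7811 after ROSI, which is 35.6%. Lower in 2-cell embryos were 7687 genes after ICSI, or 35.0%, and 7088 after ROSI, or 32.3%. Higher after both were 6467 genes and lower after both 6551. Called in opposite directions were 7 genes that were higher after ICSI and lower after ROSI, and 28 that were lower after ICSI and higher after ROSI. Across the genes tested, the 2 stage changes, which share no library, correlated with Pearson r = 0.945. Genes share libraries and are not independent replicates, so this r describes the tables and carries no p.

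The difference of stage changes had a median of 0.10 over all genes on the scale of log2(TPM + 1). Under median-ratio scaling of the libraries this median was -0.01, so the general excess after ROSI depends on the scaling, and medians of gene groups are given below relative to the median of all genes. Genes that averaged at least a 4-fold rise over both injections numbered 2580. Their stage changes had a median of 2.77 after ICSI and 2.93 after ROSI, and their difference exceeded that of all genes by 0.05. Genes that averaged at least a 4-fold fall numbered 1881. Their stage changes had medians of -2.56 and -2.63, and their difference lay at -0.18 relative to all genes. Cleared genes stayed on the lower side and activated genes on the higher side of the all-gene median under each of the 17 other settings. The settings computed for these classes included 4 scalings and each library left out in turn. The same genes, picked once on these same libraries, were used in every setting, so the kept sides are not independent support. The ROSI change rests on fewer zygote libraries and has the larger error. Picking genes by an average that includes it can by itself raise the difference of activated genes and lower that of cleared genes. The size of this effect was not tested. The median standard error of a single gene's difference was 0.30, and 7.60% of genes had an absolute difference of at least 1.

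**Figure D1:**
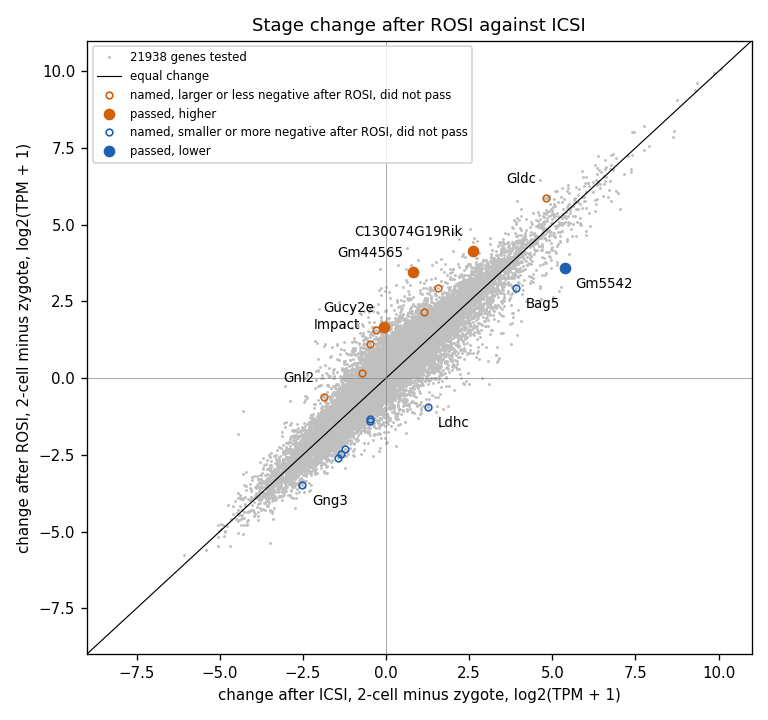
Stage change of each gene after ICSI (x axis) and after ROSI (y axis), each 2-cell minus zygote on log2(TPM + 1); grey points are the 21938 genes tested and the line marks equal change. Filled points are the 4 genes that passed the test of the difference, and open points are the genes named for the smallest p-values, which did not pass.

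Genes whose stage change differed between the injections at a limma adjusted p under 0.05 numbered 4 among all genes tested. Higher after ROSI were 3 genes, 0.0137% of those tested, and lower was 1 gene, 0.00456%. Without adjustment, 2222 genes were higher at p under 0.05, or 10.1%, and 1081 were lower, or 4.93%. The 4 genes are Gucy2e, C130074G19Rik, Gm44565 and Gm5542. The last 3 lie outside the rule for named genes and are named after their values were seen.

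Gucy2e encodes a membrane guanylyl cyclase best known from the retina. It lies on chromosome 11 at 69218117-69237036 on the minus strand of GRCm38, and no other annotated gene overlaps it. Its level was 5.96, 6.43 and 5.92 TPM in ICSI zygotes and 4.88, 6.28 and 6.57 TPM in ICSI 2-cell embryos, and these groups overlap. After ROSI it was 4.01 and 3.67 TPM in zygotes and 14.1, 15.1 and 13.9 TPM in 2-cell embryos. The ROSI libraries were thus the lowest among the zygotes and the highest among the 2-cell embryos, without overlap at either stage. The stage change was -0.05 after ICSI (SE 0.12, limma adjusted p = 0.75) and 1.67 after ROSI (SE 0.14, limma adjusted p = 1.2e-06). The difference was 1.72 (SE 0.18, limma adjusted p = 0.026).

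Because Gucy2e is the gene activated after ROSI with no called change after ICSI, the sequence just before its annotated start is shown. It covers 236 bases of the minus strand at chr11:69237037-69237272, from the RefSeq promoter table for GRCm38.p6, and ends at the base before the start. Capitals mark GGATTA, the core bound by homeodomains of the bicoid-like class, which includes the Obox family of the early embryo.

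Gucy2e: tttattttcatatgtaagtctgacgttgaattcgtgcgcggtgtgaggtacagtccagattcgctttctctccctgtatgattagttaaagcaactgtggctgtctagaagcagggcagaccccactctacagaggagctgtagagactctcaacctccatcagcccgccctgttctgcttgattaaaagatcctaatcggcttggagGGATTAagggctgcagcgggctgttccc

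Both strands were searched for 3 motifs, whose matches did not overlap, and the motifs were chosen after the sequence had been read. GGATTA occurred 1 time, starting 28 bases before the end of the window, and 5.99% of 32851 RefSeq windows of the same length held it. GGGCGG, the GC box, occurred 1 time on the opposite strand, and 30.8% of windows held it. TATAAA did not occur in this window, and 11.9% of windows held it. A match describes the letters and was not tested as a binding site.

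C130074G19Rik, an uncharacterised protein-coding gene on chromosome 1 at 184871926-184883218, rose after both injections and rose more after ROSI. It was 1.51, 1.54 and 1.38 TPM in ICSI zygotes and 13.1, 15.1 and 14.3 TPM in ICSI 2-cell embryos. The ROSI libraries had 0.722 and 1.12 TPM in zygotes and 30.5, 34.4 and 33.0 TPM in 2-cell embryos. As with Gucy2e, ROSI was lowest in zygotes and highest in 2-cell embryos, with no overlap. The difference was 1.52 (SE 0.18, limma adjusted p = 0.032).

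The other passing genes are pseudogenes. Gm44565, an unprocessed pseudogene on chromosome 7 at 18742327-18743611, was 0.740 and 0.761 TPM in ROSI zygotes and 17.2, 19.6 and 18.0 TPM in ROSI 2-cell embryos. After ICSI it was 6.19, 5.19 and 3.52 TPM in zygotes and 6.87, 9.92 and 12 TPM in 2-cell embryos. Its difference was 2.64 (SE 0.31, limma adjusted p = 0.032), and it rests on 2 to 52 reads per library.

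Gm5542, an unprocessed pseudogene on chromosome 3 at 94090818-94091906, is the gene activated less after ROSI. It was 41.5, 44.6 and 47.3 TPM in ICSI 2-cell embryos and 15.4, 16.3 and 18.2 TPM in ROSI 2-cell embryos, with no overlap. In zygotes it was at 0.0712, 0.183 and 0 TPM after ICSI and at 0.457 and 0.470 TPM after ROSI, on 0 to 15 reads per library. The difference was -1.80 (SE 0.18, limma adjusted p = 0.026). Reads of an unprocessed pseudogene may be shared with the gene it was copied from, and how the counting split them is not given in the sources used here.

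These calls depended on single libraries and on the model, and none of the 4 passed with the replicate number as a block in it. The 4 genes were picked on these same libraries, and each kept its direction in every alternative in which it was tested. All 4 passed without ROSI 2-cell replicate 3. Without ICSI 2-cell replicate 1 or replicate 3, 3 of them passed, and without ROSI zygote replicate 2, 2 passed. None of the 4 passed when any of the other 7 libraries was left out, namely ROSI zygote 1, the 3 ICSI zygotes, ROSI 2-cell 1 and 2, and ICSI 2-cell 2. None passed without both zygotes numbered 1 either, the libraries poor in small nuclear and nucleolar RNA. Over the 11 fits without 1 library, the difference of Gucy2e ran from 1.60 to 1.79, with limma adjusted p from 0.025 to 0.15.

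**Figure D2:**
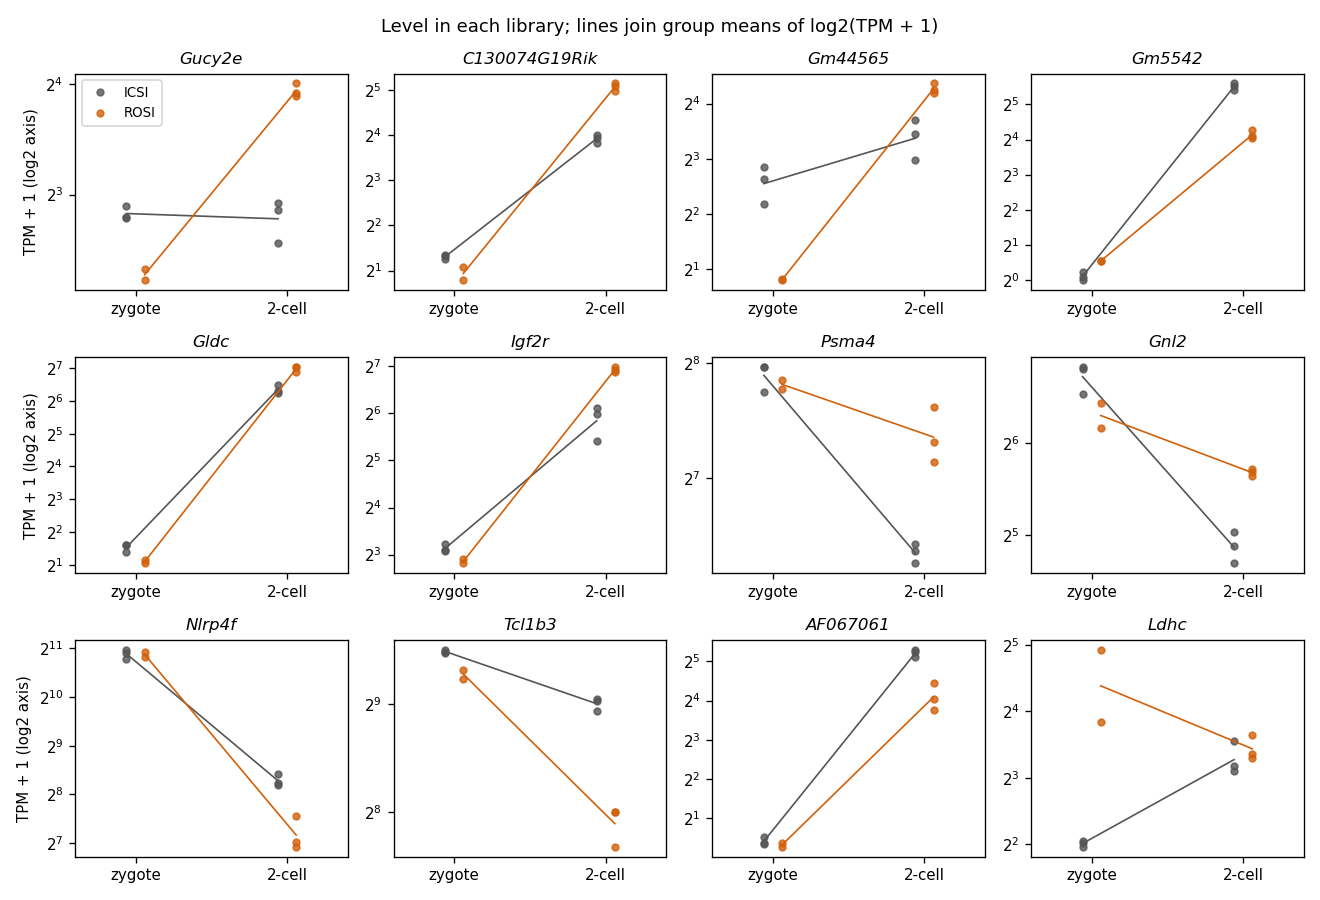
Level in each library as TPM + 1 on a log2 axis, for ICSI (grey) and ROSI (orange) zygotes and 2-cell embryos; points are libraries and lines join the group means of log2(TPM + 1). Gucy2e is level after ICSI and climbs after ROSI, Psma4 drops less after ROSI, Nlrp4f and Tcl1b3 drop further, and Ldhc runs in opposite directions.

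Protein-coding genes fitted on their own gave many more calls. There TPM were rescaled to the protein-coding total and 15279 genes were tested, so both the scale and the number of tests differ. Higher after ROSI were 377 genes, or 2.47%, and lower were 250, or 1.64%. On the deposited scale without the rescaling, protein-coding genes alone gave 257 higher and 106 lower. With all genes tested on the rescaled values there were 39 higher and 27 lower. The 627 calls were picked on these same libraries. All kept their direction with any 1 library left out, but their number did not hold. Without ROSI zygote replicate 1, which leaves 1 ROSI zygote library assumed to vary like the other groups, 2 genes were higher and 1 lower. Counts higher and lower were 111 and 96 without ROSI zygote 2, 76 and 41 without ICSI zygote 2, and 61 and 37 without ICSI zygote 3. They were 253 and 174 without ROSI 2-cell 1, 103 and 62 without ROSI 2-cell 2, 164 and 77 without ICSI 2-cell 1, and 141 and 62 without ICSI 2-cell 2. With both zygote libraries numbered 1 left out, no gene was called by limma, and 2523 had an unadjusted p under 0.05. Calls of the protein-coding fit are quoted below under that name.

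Among those 627 genes, the most frequent course was a rise after both injections that was larger after ROSI, with 207 genes. A fall after both that was deeper after ROSI came next, with 133 genes. Falls that were shallower after ROSI numbered 47, and rises that were smaller after ROSI 36. Called after ROSI alone were 63 higher and 51 lower genes, and after ICSI alone 18 higher and 39 lower. Opposite directions were called for 33 genes.

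Genes named for the smallest p-values among those higher after ROSI did not pass over all genes, each at a limma adjusted p of 0.064. Some rose after both injections, others changed after 1 injection or in opposite directions, and Gnl2, given below, fell less after ROSI. Rpl3, a protein of the large ribosomal subunit, was 11.8, 11.1 and 12.2 TPM in ICSI zygotes and 25.4, 28.7 and 27.6 TPM in ICSI 2-cell embryos. After ROSI it went from 11.2 and 9.74 TPM to 49.7, 52.6 and 46.7 TPM. Zygotes overlapped and 2-cell embryos did not, and the difference was 0.99 (SE 0.15). Gldc, the decarboxylase of the glycine cleavage system, was 1.62 to 2.07 TPM in ICSI zygotes and 75.2 to 89.0 TPM in ICSI 2-cell embryos. In ROSI embryos Gldc went from 1.06 and 1.22 TPM to between 116 and 131 TPM, a difference of 1.06 (SE 0.16). Isca2, which assembles iron-sulfur clusters in mitochondria, rose by 1.57 after ICSI and by 2.93 after ROSI. Each of these 3 genes passed in the protein-coding fit, at a limma adjusted p of 0.012 for Rpl3 and Isca2 and 0.013 for Gldc.

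Akap1 anchors protein kinase A to the outer mitochondrial membrane. It fell from 104, 109 and 112 TPM to 64.5, 67.3 and 65.7 TPM after ICSI. After ROSI it was 93.8 and 105 TPM in zygotes and 110, 108 and 114 TPM in 2-cell embryos, a change of 0.15 that was not called (limma adjusted p = 0.13). Impact, an imprinted inhibitor of the kinase Gcn2, fell by 0.48 on the log2 scale after ICSI and rose by 1.10 after ROSI. It was 3.13 to 4.78 TPM in ICSI and 8.31 to 10.02 TPM in ROSI 2-cell embryos, and groups were apart at both stages. Igkv10-96, an immunoglobulin light chain segment, was 6.55 to 8.53 TPM in ICSI zygotes and 1.90 and 3.61 TPM in ROSI zygotes. Its difference of 1.87 (SE 0.29) therefore includes a lower start after ROSI.

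Gene groups were described with 24 lists, and no list was tested as a set. No member of any list passed over all genes. Counts at an unadjusted p under 0.05 are given beside the shares of all genes, which were 10.1% higher and 4.93% lower.

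**Figure D3:**
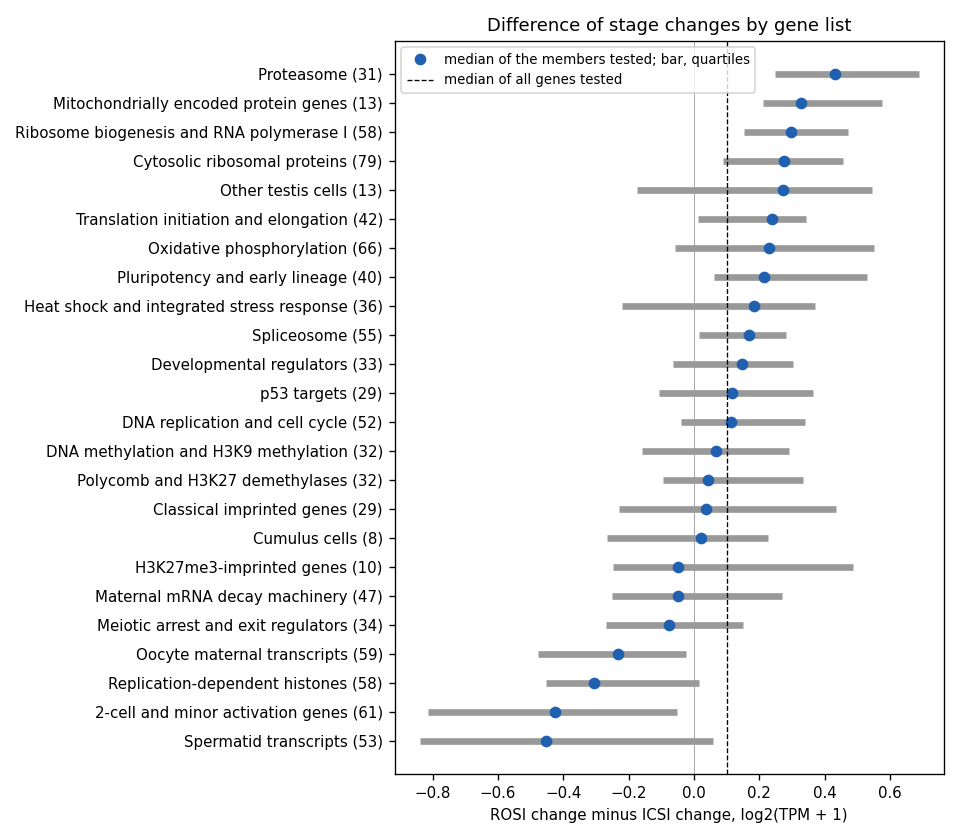
Difference of stage changes (ROSI change minus ICSI change, log2(TPM + 1)) by gene list, with the number of members tested in brackets; points are medians, bars run from the lower to the upper quartile, and the dashed line is the median of all genes tested. Proteasome and ribosome lists lie to the right of the line, and spermatid, 2-cell, histone and oocyte lists to the left.

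Genes of the 2-cell stage were activated less after ROSI in the median. This list holds the Zscan4, Tcstv, Tdpoz, Obox, Usp17-like and Eif1a-like families and other genes of the minor and early major wave, and 61 of its 65 members in the table were tested. Their median stage change was 3.77 after ICSI and 3.31 after ROSI, and their median difference was -0.53 relative to all genes. At an unadjusted p under 0.05, 18 members were lower, 29.5% of the list, and 4 were higher, 6.56%. In the protein-coding fit 9 members passed as lower and 1, Trim43a, as higher. Over all 27 alternatives the median relative to all genes stayed between -0.61 and -0.28.

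Zfp352, a zinc finger gene of the 2-cell embryo, was 12.5, 5.55 and 6.59 TPM in ICSI zygotes and 15.2 and 10.4 TPM in ROSI zygotes. In 2-cell embryos it was 266, 231 and 238 TPM after ICSI and 123, 155 and 161 TPM after ROSI. The 2-cell groups were apart and the zygote groups overlapped, with a difference of -1.38 (SE 0.37, limma adjusted p = 0.14). AF067061, of the Tcstv family, reached 33.4 to 38.2 TPM in ICSI and 12.6 to 21 TPM in ROSI 2-cell embryos from under 0.5 TPM in every zygote library. Its difference was -1.03 (SE 0.25). Tdpoz3, a TRAF and POZ domain gene, reached 33.5 to 41.0 TPM after ICSI and 11.5 to 18.4 TPM after ROSI, a difference of -1.44 (SE 0.32). Spz1, a transcription factor gene, and Gm10696 had differences of -1.05 (SE 0.21) and -0.99 (SE 0.20). These 5 genes passed in the protein-coding fit, with limma adjusted p from 0.019 for Spz1 to 0.039 for Tdpoz3.

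Members of this list differed among themselves. Zscan4c, a telomere regulator gene, was 22.5 to 34.6 TPM in ICSI and 10.8 to 19 TPM in ROSI 2-cell embryos, with a difference of -0.96 (SE 0.34, limma adjusted p = 0.23). Zscan4d was also lower in ROSI 2-cell embryos, at 27.9 to 38.3 TPM against 45.2 to 60.4 TPM. It was lower in ROSI zygotes too, at 5.08 and 6.91 TPM against 8.51 to 11.8 TPM, and its difference of stage changes was -0.05 (SE 0.27), with a sign that turned in 7 alternatives. Duxf3, the mouse Dux gene that acts upstream of many of these genes, had already dropped by the 2-cell stage. It was 13.7, 9.95 and 9.01 TPM in ICSI zygotes, 15.2 and 14.4 TPM in ROSI zygotes, and at most 1.76 TPM in every 2-cell library. Its difference was -0.44 (SE 0.40, limma adjusted p = 0.65). Zscan4, Tdpoz, Tcstv, Obox and Usp17-like genes have near-identical copies, so how reads were split within a family is uncertain.

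Bag5, a cochaperone of Hsp70 and a member of no list here, also rose less after ROSI. It was 9.95 to 12.5 TPM in ICSI zygotes and 174 to 193 TPM in ICSI 2-cell embryos, against 15.7 and 17.8 TPM and 124 to 140 TPM after ROSI. Its difference was -0.98 (SE 0.16, limma adjusted p = 0.064, and 0.012 in the protein-coding fit).

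Replication-dependent histone genes, which supply chromatin in S phase, showed a lower median after ROSI. Of 66 genes 58 were tested, with a median difference of -0.41 relative to all genes, 10 lower and 0 higher at an unadjusted p under 0.05. Without ICSI 2-cell replicate 1, the shallowest library, the median was -0.26 relative to all genes. Hist4h4 was 113, 105 and 103 TPM in ICSI zygotes and 134 and 151 TPM in ROSI zygotes, while the 2-cell groups overlapped at 170 to 183 and 148 to 176 TPM. Its difference was -0.50 (SE 0.14), and it and Hist1h2bc passed in the protein-coding fit. Hist1h3e differed instead at the 2-cell stage, with 93.9 to 150 TPM after ICSI and 58.5 to 82.6 TPM after ROSI. Core histone genes are near copies of each other and their reads may be shared.

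Maternal transcripts of the oocyte were cleared further after ROSI in the median. The list holds secreted oocyte factors, zona proteins, the subcortical complex, and the Nlrp, oogenesin and Tcl1 families. All 59 members in the table were tested, and 54 were lower in 2-cell embryos after each injection. The median stage change was -2.13 after ICSI and -2.37 after ROSI, and the median difference lay at -0.33 relative to all genes. At an unadjusted p under 0.05, 20 members were lower, 33.9%, and 2 were higher, 3.39%. In the protein-coding fit 11 were lower, and Ddx4, a germ cell RNA helicase, was higher. The median relative to all genes stayed between -0.42 and -0.27 in all 27 alternatives.

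Of the 11 lower members, 6 were the Tcl1 genes Tcl1 and Tcl1b1 to Tcl1b5, which neighbour each other on chromosome 12 and are similar enough to share reads. Tcl1b3 was 710, 715 and 724 TPM in ICSI zygotes and 528, 522 and 487 TPM in ICSI 2-cell embryos. After ROSI it went from 637 and 602 TPM to 255, 204 and 255 TPM, apart from ICSI at both stages. Its difference was -0.90 (SE 0.14, limma adjusted p = 0.064). Nlrp4f, an oocyte NLR gene, started at 1760, 1930 and 2006 TPM after ICSI and at 1822 and 1940 TPM after ROSI, with overlap. At the 2-cell stage it was 302, 340 and 290 TPM after ICSI and 120, 129 and 186 TPM after ROSI, with none. The difference was -1.11 (SE 0.22, limma adjusted p = 0.089).

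Not every maternal transcript followed the median. Gdf9, a growth factor of the oocyte, fell by 1.70 after ICSI and by 1.94 after ROSI, a difference of -0.24 (SE 0.18, limma adjusted p = 0.56). H1foo, the oocyte linker histone, was 1097, 1368 and 1298 TPM in ICSI zygotes and 700 and 778 TPM in ROSI zygotes. It was down to 84.8 to 88.2 and 62.2 to 81.8 TPM in 2-cell embryos, a difference of 0.54 (SE 0.18, limma adjusted p = 0.21). Btg4, the adaptor that recruits deadenylases to maternal mRNA, had a difference of 0.06 (SE 0.26), and its sign turned under median-ratio scaling.

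Among the other genes named for the smallest p-values, 5 with transcripts abundant in zygotes fell further after ROSI and passed in the protein-coding fit. Prdx2, a peroxiredoxin, went from 341, 333 and 335 TPM to 268, 230 and 227 TPM after ICSI, and from 318 and 315 TPM to 128, 122 and 124 TPM after ROSI. Its difference was -0.86 (SE 0.12), with the groups apart at both stages. Gng3, a G protein gamma subunit, dropped to 29.8 to 36.4 TPM after ICSI and to 15.4 to 16.4 TPM after ROSI from overlapping zygote levels of 183 to 206 TPM. Lypd3, a membrane-anchored surface protein, dropped to 44.5 to 53.8 and 18.8 to 20.8 TPM. Lmo1, a LIM-only transcription cofactor, and Rela, the p65 subunit of NF-kB, had differences of -1.13 (SE 0.18) and -1.09 (SE 0.19). Zygote groups overlapped for Gng3, Lypd3, Lmo1 and Rela, while 2-cell groups were apart. Over all genes the limma adjusted p of the 5 ran from 0.064 to 0.070.

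Regulators of meiosis and replication licensing were mixed. Among 34 meiotic arrest and exit regulators, 6 were lower, 17.6%, and 1 was higher, 2.94%, at an unadjusted p under 0.05. Ttk, a spindle checkpoint kinase, fell by 2.42 after ICSI and by 3.05 after ROSI, whereas Bub1b, another checkpoint kinase, fell by 1.69 and by 0.98. Among 52 genes of DNA replication and the cell cycle, 8 were higher, 15.4%, and 4 lower, 7.69%. Their median lay 0.01 above that of all genes. Mcm4, a subunit of the replicative helicase, was 56.4, 58.9 and 57.5 TPM in ICSI and 18.8, 20.6 and 27.5 TPM in ROSI 2-cell embryos. It had 140 to 158 TPM in ICSI zygotes and 117 and 138 TPM in ROSI zygotes, and the difference was -1.12 (SE 0.20, limma adjusted p = 0.072). Mcm3 and the licensing factor Cdt1 were lower and Gins3 and Rrm1 higher in the protein-coding fit. Pou5f1, the pluripotency factor Oct4, was 276 to 297 TPM in all zygote libraries and fell to 122 to 151 TPM after ICSI and 73.0 to 96.1 TPM after ROSI, with a difference of -0.76 (SE 0.17, limma adjusted p = 0.11).

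Proteasome transcripts fell less after ROSI in the median. This protease degrades ubiquitinated proteins, among them maternal ones. All 31 members were tested. Their median stage change was -1.55 after ICSI and -0.94 after ROSI, and the median difference was 0.33 relative to all genes. At an unadjusted p under 0.05, 18 members were higher, 58.1%, and 0 were lower, and 30 of 31 had a positive difference. Psma4, of the outer ring of the core particle, was 214, 249 and 248 TPM in ICSI zygotes and 75.8, 81.6 and 85.1 TPM in ICSI 2-cell embryos. After ROSI it went from 230 and 218 TPM to 140, 195 and 158 TPM. Zygotes overlapped, 2-cell embryos were apart, and the difference was 1.08 (SE 0.18, limma adjusted p = 0.070). Psmd12, of the lid, and Psmc4, an ATPase of the base, had differences of 0.91 (SE 0.20) and 0.98 (SE 0.27), and these 3 passed in the protein-coding fit.

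Genes for making ribosomes and starting translation were also on the higher side after ROSI. Of 58 genes of ribosome biogenesis and RNA polymerase I, 18 were higher and 0 lower at an unadjusted p under 0.05, and 53 had a positive difference. Their median stage change was 0.84 after ICSI and 1.33 after ROSI, a median difference of 0.19 relative to all genes. Gnl2, a nucleolar GTPase of the large subunit, fell from 91.4, 113 and 111 TPM to 24.7, 28.3 and 31.6 TPM after ICSI. It fell from 70.7 and 85.5 TPM to 48.7, 50.3 and 51.5 TPM after ROSI, so the order of the groups reversed between stages without overlap. The difference was 1.24 (SE 0.18, limma adjusted p = 0.064). Utp3 and Utp14a, of the small subunit processome, rose by 0.69 and 1.13 after ICSI and by 1.33 and 1.81 after ROSI. Polr1b, a core subunit of RNA polymerase I, was 18.1 to 18.9 TPM in ICSI and 27.5 to 33.4 TPM in ROSI 2-cell embryos, with a difference of 0.64 (SE 0.21, limma adjusted p = 0.20).

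Among 79 cytosolic ribosomal protein genes, 18 were higher and 1 was lower at an unadjusted p under 0.05, with medians of 1.01 after ICSI and 1.43 after ROSI. Besides Rpl3, no member passed in the protein-coding fit. Rps18 and Rps25, of the small subunit, had differences of 0.63 (SE 0.18) and 0.73 (SE 0.23). Ribosomal protein genes have many processed copies in the genome, and reads may be split between them. Of 42 translation factors, 9 were higher and 0 lower. Eif3l, a subunit of initiation factor eIF3, was 28.0 to 35.3 TPM in ICSI and 62.0 to 75.4 TPM in ROSI 2-cell embryos from overlapping zygote levels, a difference of 0.98 (SE 0.22, limma adjusted p = 0.11). Eif3c, Eif3e, Eif3l and the termination factor Gspt1 passed in the protein-coding fit. Relative to all genes, the medians of the proteasome, ribosome biogenesis, ribosomal protein and translation lists stayed positive in all 27 alternatives.

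Of 55 spliceosome genes, 6 were higher at an unadjusted p under 0.05, 10.9%, and 1 was lower. Their median difference was 0.07 relative to all genes. With 1 library left out, it ran from 0.02 without ICSI 2-cell replicate 1 to 0.13 without ROSI zygote replicate 2. With the zygotes numbered 1 alone it was -0.0045. Snrpa1, a protein of the U2 particle, was 44.3 to 50.3 TPM in ICSI zygotes and 27.6 to 33.7 TPM in ICSI 2-cell embryos. It was 36.6 and 39.0 TPM and then 40.0 to 46.9 TPM after ROSI, a difference of 0.82 (SE 0.16, limma adjusted p = 0.079). Among 66 nuclear genes of oxidative phosphorylation, 9 were higher, 13.6%, and 1 lower, 1.52%. Uqcrb, of complex III, fell from 62.2, 89.6 and 85.1 TPM to 5.43, 11.1 and 11.3 TPM after ICSI, and from 66.1 and 86.2 TPM to 27.5, 29.4 and 25.8 TPM after ROSI, a difference of 1.58 (SE 0.36, limma adjusted p = 0.11). Ndufc2 and Ndufa9, of complex I, also passed as higher in the protein-coding fit, and Cox8a as lower. All 13 mitochondrially encoded protein genes had a positive difference, of which 1, mt-Atp8, had an unadjusted p under 0.05. Their median was 0.23 relative to all genes, and it was -0.02 without ROSI zygote replicate 2.

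**Figure D4:**
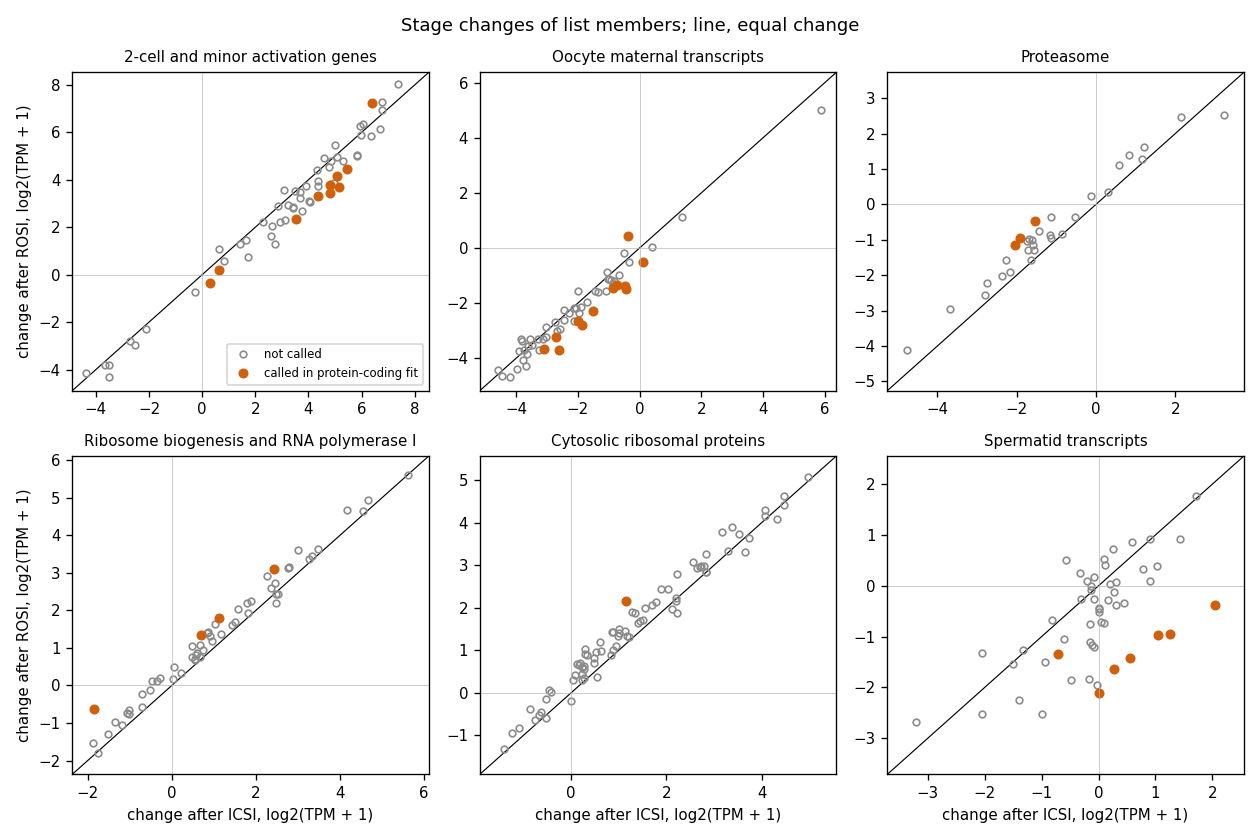
Stage changes of single list members after ICSI (x axis) and after ROSI (y axis), 2-cell minus zygote on log2(TPM + 1) over all genes tested, with the line of equal change. Orange points passed in the protein-coding fit: 9 of the 2-cell genes and 11 oocyte transcripts below the line, 7 spermatid transcripts below it, and 3 proteasome and 4 ribosome biogenesis genes above it.

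Machinery of maternal mRNA decay gave 7 higher members, 14.9%, and 3 lower, 6.38%, among 47. The shares of all genes were 10.1% and 4.93%. Cpeb2, a regulator of cytoplasmic polyadenylation, was 3.17 to 3.83 TPM in ICSI and 7.93 to 12 TPM in ROSI 2-cell embryos, while zygotes overlapped at 1.58 to 2.14 TPM. The difference was 1.15 (SE 0.24, limma adjusted p = 0.098). Zfp36l2, which directs decay of AU-rich transcripts, fell from 15.4 to 21.2 TPM to 11.4 to 13.7 TPM after ICSI and rose from 17 and 18.8 TPM to 22.8 to 38.8 TPM after ROSI, a difference of 1.15 (SE 0.28, limma adjusted p = 0.12). Both passed in the protein-coding fit.

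Transcripts of the haploid male germ cell had another course. Of 72 spermatid genes in the table, 53 passed the filter on low values. This filter can be met through the ROSI zygotes alone, so counts over the tested members describe only those. Their median stage change was 0.00 after ICSI and -0.45 after ROSI, with 13 lower and 2 higher at an unadjusted p under 0.05. The median difference of -0.56 relative to all genes was -0.32 without ROSI zygote replicate 1, -0.84 without ROSI zygote replicate 2 and -0.19 without both zygotes numbered 1. Ldhc, the lactate dehydrogenase of male germ cells, was 29.4 and 13.3 TPM in ROSI zygotes and 2.89, 3.13 and 3.06 TPM in ICSI zygotes. It was 8.81 to 11.6 TPM in ROSI and 7.55 to 10.7 TPM in ICSI 2-cell embryos, so zygotes were apart and 2-cell embryos overlapped. The stage change was 1.26 after ICSI and -0.95 after ROSI, both called, and the difference was -2.21 (SE 0.36, limma adjusted p = 0.067). Pgam2, a phosphoglycerate mutase of muscle and testis, behaved alike in zygotes, at 20.5 and 7.03 TPM after ROSI and 0.427 to 0.699 TPM after ICSI.

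Other spermatid transcripts differed in how far they persisted in ROSI 2-cell embryos. Pabpc2, a testis poly(A)-binding protein gene, was 9.39 and 2.82 TPM in ROSI zygotes, 0.0717 to 0.892 TPM in ROSI 2-cell embryos and at most 0.0349 TPM in every ICSI library. Crisp2, of the acrosome and tail, was 17.2 and 6.06 TPM in ROSI zygotes and still 6.28 to 9.91 TPM in ROSI 2-cell embryos, against at most 0.149 TPM after ICSI. Its stage change after ROSI was -0.27 (limma adjusted p = 0.50), and the sign of its difference of -0.19 turned in 5 alternatives. Smcp, a sperm mitochondrial protein gene, was 19.6 and 6.43 TPM and then 5.22 to 12.1 TPM after ROSI, and it was listed at 0 in all ICSI libraries. Prm1, a protamine, was 5.52 and 1.60 TPM in ROSI zygotes and at most 0.259 TPM in ROSI 2-cell embryos. In ICSI zygotes it was 0.330, 1.02 and 0.0963 TPM, and in ICSI 2-cell embryos it was 1.07 TPM in replicate 2 and 0 in the others, so the 2-cell groups overlapped. Tnp1, a transition protein gene, was 4.56 and 4.76 TPM in ROSI zygotes and 1.67 to 4.03 TPM in ROSI 2-cell embryos, against at most 0.443 TPM after ICSI. ROSI zygote replicate 1 was higher than replicate 2 for each of Ldhc, Pgam2, Pabpc2, Crisp2, Smcp and Prm1, but not for Tnp1. The whole spermatid list summed to 533 and 846 TPM in ROSI zygotes, 520 to 528 TPM in ICSI zygotes, 209 to 255 TPM in ROSI and 197 to 210 TPM in ICSI 2-cell embryos. Of its 72 members, 2 were at 0 in all ROSI zygotes and 6 in all ICSI zygotes. The part of these transcripts in the other differences was not tested, and fewer cells and less RNA per cell cannot be told apart in pooled embryos.

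Single genes tied to Polycomb and imprinting moved in both directions. Kdm6b, a demethylase of the Polycomb mark, was 140 to 185 TPM in ICSI zygotes and 135 and 149 TPM in ROSI zygotes. It fell to 82.7 to 113 TPM after ICSI and 40.4 to 54.4 TPM after ROSI, a difference of -0.83 (SE 0.23, limma adjusted p = 0.14), and it was the Polycomb list's only call in the protein-coding fit. Of 32 members of that list, 4 were higher, 12.5%, and 1 lower, 3.13%, at an unadjusted p under 0.05. These shares are near the 10.1% and 4.93% of all genes. Their median was -0.06 relative to all genes, and it was -0.01 without ICSI 2-cell replicate 2. Its sign turned under quantile normalization, to 0.05, and with the zygotes numbered 1 alone, to 0.0051. Developmental regulators, which Polycomb commonly covers, had 33 members tested, of which 2 were higher, 6.06%, and 4 lower, 12.1%. Hes1, a Notch target, was 9.92 to 22.9 TPM in ICSI and 3.84 to 6.24 TPM in ROSI 2-cell embryos from overlapping zygote levels, a difference of -1.44 (SE 0.40, limma adjusted p = 0.14). Irx5 was 1.17 to 1.94 TPM in ICSI and 3.68 to 4.93 TPM in ROSI 2-cell embryos, a difference of 1.20 (SE 0.29, limma adjusted p = 0.12). Irx5 was the developmental list's only call in the protein-coding fit (limma adjusted p = 0.040). Among genes imprinted through maternal H3K27me3, 10 were tested, with 2 higher, Gab1 and Btg3, and 0 lower at an unadjusted p under 0.05. Of these 10, 5 had a positive difference. Their median was -0.15 relative to all genes and ran from -0.37 to 0.24 over the alternatives.

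Classical imprinted genes had 29 members tested, with 6 higher, 20.7%, and 1 lower, 3.45%. Igf2r, the receptor that clears Igf2 and is expressed from the maternal copy in most later tissues, was 7.45 to 8.31 TPM in ICSI zygotes and 6.02 and 6.47 TPM in ROSI zygotes. It reached 41.5, 62.7 and 68.7 TPM after ICSI and 117, 126 and 120 TPM after ROSI, apart at both stages. The difference was 1.36 (SE 0.24, limma adjusted p = 0.072). Igf2r, Impact and the ubiquitin ligase gene Ube3a passed as higher in the protein-coding fit. Zfp57, which protects imprints, fell by 2.65 after ICSI and by 3.14 after ROSI, and was the call of the DNA and H3K9 methylation list in that fit. In that list 5 of 32 members were higher, 15.6%, and 3 lower, 9.38%, at an unadjusted p under 0.05.

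Pluripotency and early lineage genes had 7 higher, 17.5%, and 3 lower, 7.5%, among 40. Dppa5a, an RNA-binding pluripotency gene, reached 66.7 to 81.0 TPM after ICSI and 122 to 186 TPM after ROSI from overlapping zygote levels, a difference of 1.21 (SE 0.29, limma adjusted p = 0.11). Among 29 p53 targets 2 were higher, 6.90%, and 0 lower, and Cdkn1a, the cell cycle inhibitor p21, had a difference of 0.64 (SE 0.30, limma adjusted p = 0.35). Among 36 heat shock and integrated stress genes 7 were higher, 19.4%, and 2 lower, 5.56%, and Hspa5, the chaperone of the endoplasmic reticulum, was the call in the protein-coding fit.

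Markers of cumulus cells, which surround the oocyte, and of other testis cells were examined in the same libraries. Of 22 cumulus genes 8 were tested, 1 was higher, and the list summed to 11.6 to 13.5 TPM in zygotes and 66.7 to 78.4 TPM in 2-cell embryos, with ROSI and ICSI overlapping at each stage. Amhr2 and Gja1 held most of the 2-cell sum, while Fshr, Lhcgr and Ptx3 reached at most 0.766, 0.258 and 0.208 TPM in any library. Of 22 genes of other testis cells 13 were tested, with 3 meiotic genes, Sycp1, Sycp2 and Sycp3, higher and 0 lower. That list summed to 414 to 448 TPM in ROSI and 435 to 481 TPM in ICSI zygotes, which overlapped. In 2-cell embryos it summed to 464 to 515 TPM after ROSI and 380 to 416 TPM after ICSI. Its part in other results was not tested.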

How the data were processed

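The 11 RNA-seq libraries were made with a stranded SMART-seq kit from 1 ng of total RNA, per the labels' protocols. The authors deposited TPM, and the submitters' processing notes name fastp, Bowtie2, STAR 2.7.4a, featureCounts and genome build mm10. Roles, annotation and strand setting are not given in the sources used here.

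The table held 49585 genes, and 47102 matched 1 gene of GENCODE M21, 95.0%. Reads were recovered from TPM times exon length, which put 87.9% to 90.7% of each library's values within 0.01 reads of a whole count. The limit of 3 reads equals 0.0512 to 0.396 TPM in a 2 kb gene, for counting error only. No column lacked a sample.

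Tests used log2(TPM + 1) of genes that reached 1 TPM in 2 or more libraries, a scale that understates changes of low genes. One limma 3.58.1 model (R 4.3.3, eBayes with trend) held the 4 group means with 7 residual degrees of freedom, and p-values were adjusted by Benjamini-Hochberg over all genes at 0.05. Tables used python 3.11.15, pandas 2.3.3, numpy 2.4.6 and matplotlib 3.10.9. The model was tested on simulated data.

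Genes were named by rule: per direction up to 12 that passed with at least 5 TPM in 1 group and no clone or predicted name, filled to 8 by smallest p, up to 3 per list by smallest p, and 20 followed genes. Xist, among the latter, did not pass the filter, and 1 gene named in a list is not reported here. The members and lists were chosen with earlier results of these data known. Same-numbered libraries deviated together, at a correlation over 0.1, in 2 of 15 pairs. These were the ROSI and ICSI zygotes numbered 1, at 0.33, and those numbered 2, at 0.22. ROSI zygote 2 also deviated with ICSI zygote 3, at 0.21. With 2 ROSI zygote libraries, their deviations from the group mean are exact opposites. Values of ROSI zygote 2 therefore mirror those of ROSI zygote 1, which were -0.22 with ICSI zygote 2 and -0.21 with ICSI zygote 3. They are not separate evidence on pairing. Replicate numbers were not taken as pairs in the main model, and with the number as a block 0 of the 4 calls remained.

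Other settings were pseudocounts, filters, scalings, variance priors, library weights, a replicate block and libraries left out. Added after seeing the data were a fit without Gm23935, an adjusted p threshold of 0.1, and further protein-coding fits.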

Additional observations from a re-analysis of the deposited data

Results flagged for a closer look

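In 4 genes the stage change itself differed between ROSI and ICSI by the limma test of that difference at an adjusted p under 0.05. The difference, ROSI change minus ICSI change on log2(TPM + 1), was 1.72 for Gucy2e, 1.52 for C130074G19Rik and 2.64 for Gm44565. It was -1.80 for Gm5542. Recovered reads ranged from 170 to 1483 per library for Gucy2e, from 22 to 1028 for C130074G19Rik, from 0 to 704 for Gm5542 and from 2 to 52 for Gm44565.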

How the results depend on the processing

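Counts of genes whose stage change differed, 3 higher and 1 lower over all genes, were the least stable results. They were 71 and 23 with a pseudocount of 5, 6 and 7 without a filter, 55 and 16 with a filter of 5 TPM, 64 and 180 with median-ratio scaling, 100 and 97 with quantile normalization, and 152 and 68 with array weights. They were 377 and 250 for protein-coding genes alone, 257 and 106 for these without rescaling, 39 and 27 with rescaling and all genes tested, and 121 and 49 at an adjusted p threshold of 0.1. With the replicate number as a block they were 0 and 0, with 3085 genes at an unadjusted p under 0.05. With the zygotes numbered 1 left out they were 1 and 1, and with these as the only zygotes 0 and 0, with 1533 genes at an unadjusted p under 0.05. Leaving out each library gave 0 to 13 higher and 0 to 24 lower over all genes, and 2 to 461 and 1 to 311 for protein-coding genes alone, which had 0 and 0 without both zygotes numbered 1. The share of higher among all calls was 75% on the deposited scale, where it rests on only 3 genes against 1. It was 26.2% with median-ratio scaling, at 64 against 180, and 50.8% with quantile normalization, at 100 against 97. Stage counts moved past 1.5 times in 2 cases, to 5113 higher after ROSI with the filter of 5 TPM and to 4936 lower after ICSI for protein-coding genes alone, which test fewer genes.

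Of 101 named genes, 96 kept the direction of their difference in every alternative tested. Most were named for a small p in these same libraries, so a kept direction is not independent support. The exceptions other than Gja1 were followed genes, which were not chosen by p. Differences of the exceptions ran from -0.45 for Smcp to 0.06 for Btg4 in the main fit, while Gdf9, at -0.24, did not turn. Gja1 turned to 0.12 with a pseudocount of 0.1. Zscan4d was 0.0060 with that pseudocount, 0.42 with the zygotes numbered 1 alone, and ran from -0.24 to 0.14 with 1 library left out, positive without ROSI zygote 2, ICSI zygotes 2 or 3, ROSI 2-cell 2 or ICSI 2-cell 1. Btg4 was -0.10 with median-ratio scaling, -0.011 with the replicate block, -0.062 with the zygotes numbered 1 alone, and -0.12 to 0.26 with 1 library left out, negative without ROSI zygote 2, ROSI 2-cell 3 or ICSI 2-cell 1. Crisp2 was 0.23 with a pseudocount of 0.1, 0.26 in both protein-coding rescalings, 0.46 without the zygotes numbered 1, and from -0.87 to 0.49 with 1 library left out, positive without ROSI zygote 1. Smcp ran from -1.19 to 0.29 with 1 library left out, positive without ROSI zygote 1, and was 0.29 without both zygotes numbered 1. The cause was not tested. With 2 ROSI zygote libraries, and 8.48 M reads (1e6) in ICSI 2-cell replicate 1, differences near the median standard error of 0.30 were not resolved.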
